A study of Taeniopygia guttata with 48 samples.

Results

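Gene expression in the nucleus taenia of the amygdala was compared between adult male zebra finches whose eggs had received testosterone and adult males whose eggs had received oil alone. The testosterone group came from eggs given 500 pg of the hormone in 5 µl of peanut oil on the day of laying, and the control group from eggs given 5 µl of peanut oil. Each group had 3 RNA libraries, from a 1 mm punch of 50 µm frozen sections, and these 6 libraries were part of 24 RNA libraries and 48 samples in the series. Strain, age in days and family were not given in the sources used here, and the labels do not say how many birds gave the libraries: the p-values reflect how far the 12 nucleus taenia libraries of both sexes, fitted together, scatter within their groups, and that scatter may be technical. All genes with a mean of at least 1 FPKM over the 6 libraries were taken, which gave 13535 of the 17475 genes listed. FPKM is a fragment count divided by the length of the transcript and by the number of mapped fragments of the library. The last gene inside this limit had a mean of 1.00051 FPKM and the first outside it 0.999675, and 1480 of the 3940 genes left out were at 0 in all 6 libraries.

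The nucleus taenia is the part of the avian arcopallium usually compared with the medial amygdala of mammals. It receives olfactory and other limbic input, projects to the hypothalamus, and takes part in courtship, aggression and other social behaviour. Its neurons carry receptors for androgens and oestrogens. Mothers deposit testosterone in the yolk in varying amounts, and raising it before incubation is a common way to ask whether this maternal hormone leaves a lasting mark on the brain. The comparison asks whether such a mark can be seen in the RNA of adult males.

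Across the 13535 genes no lasting difference passed the test. With limma on log2(FPKM + 1), 0 genes (0%) had a Benjamini-Hochberg adjusted p under 0.05 between the 3 testosterone and the 3 oil libraries, with testosterone replicate 2 or without it. At an unadjusted p under 0.05 there were 381 genes (2.81%), 234 higher and 147 lower after testosterone, and 303 (2.24%) without testosterone replicate 2, 128 higher and 175 lower. This count changed with single libraries. It rose to 1376 genes (10.2%) when testosterone replicate 1 was dropped and to 971 (7.17%) when testosterone replicate 3 was. Dropping oil replicates 1 to 3 gave 460 (3.4%), 302 (2.23%) and 295 (2.18%). The typical gene differed by 0.242 on the log2(FPKM + 1) scale in either direction, or 1.18-fold, and without testosterone replicate 2 by 0.212, or 1.16-fold. No gene in the deposited table carries a symbol, and 0 of its 17475 identifiers matched the gene table at hand, so genes are given by identifier, no role can be stated for them, and neither steroid receptor genes nor markers of the nucleus taenia or of other cell types could be examined. Fewer cells of a type and less RNA per cell cannot be told apart in punches of tissue, and genes that overlap or share near-identical copies could not be picked out.

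The 6 libraries did not group by treatment. Pearson r between pairs of libraries, across the 13535 genes on the log2(FPKM + 1) scale, averaged 0.858 over the 3 pairs of testosterone libraries, 0.902 over the 3 pairs of oil libraries and 0.894 over the 9 pairs across treatments. Genes share library and depth here and are not independent replicates. Testosterone replicate 3 had an r of 0.946 with oil replicate 2 and 0.944 with oil replicate 3, as high as the 0.943 between those 2 oil libraries. With the other testosterone libraries its r was 0.892 and 0.844. Testosterone replicate 1 was closest to oil replicate 3, at 0.922. All 3 testosterone libraries were thus closer to an oil library than to each other.

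**Figure D1:**
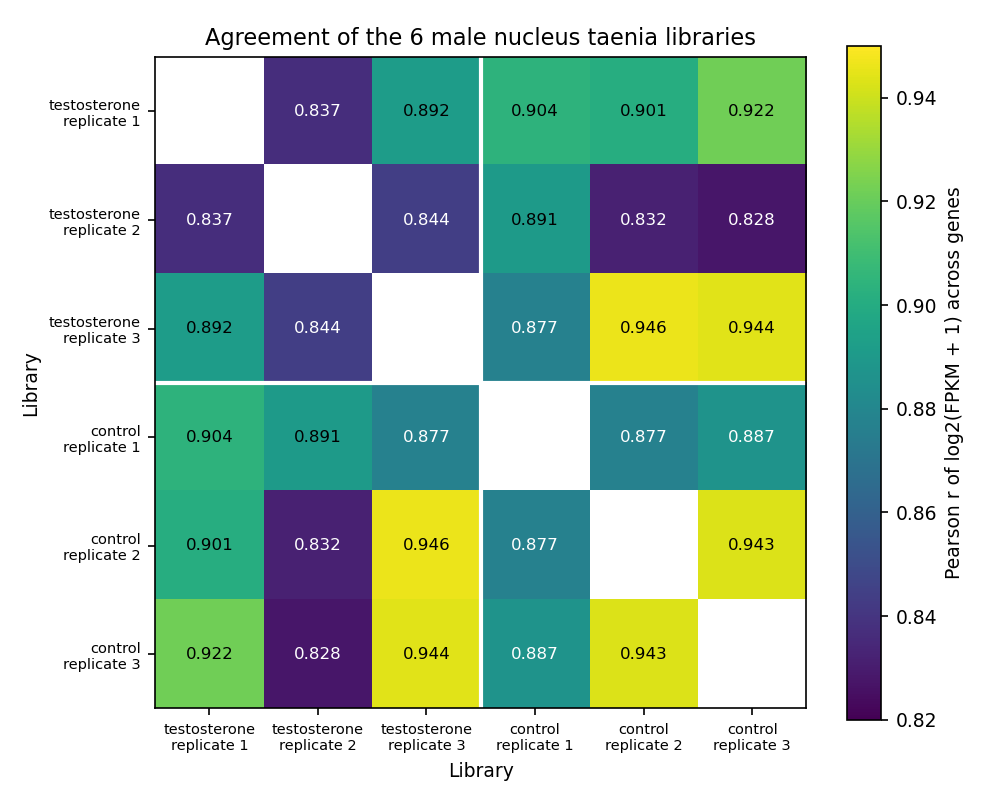
Pearson r of log2(FPKM + 1) across genes for every pair of the 6 male nucleus taenia libraries, with white lines between the testosterone and the oil (control) libraries. The row of testosterone replicate 2 runs from 0.828 to 0.891, and the highest value, 0.946, joins a testosterone and an oil library.

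Testosterone replicate 2 stood furthest from the rest. Its mean r with the other 5 libraries was 0.846, against 0.887 to 0.905 for the others. On the log2(FPKM + 1) scale it lay more than 2-fold from the median of the 6 libraries at 22.7% of genes. The other 5 did so at 5.3% to 9.73%. On this scale the share for testosterone replicate 2 was 23.9% of genes between 1 and 5 FPKM and 21.9% of genes of 50 FPKM and over. For testosterone replicate 1 it was 11.7% and 8.95%. In the other 4 libraries it was 9.76% to 15.0% at the lower level and 2.25% to 6.28% at the higher. The scale asks a larger fold in FPKM of scarce genes, so the levels are not compared at an equal fold. Testosterone replicate 2 was the highest of the 6 libraries at 4250 genes and the lowest at 3398, together 56.5% of all genes tested. Testosterone replicate 1 was at an end of the range at 39.0% and testosterone replicate 3 at 32.6%, and the 3 oil libraries at 21.2% to 24.2%. Each of the 3 testosterone libraries therefore took an extreme position more often than any oil library.

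**Figure D2:**
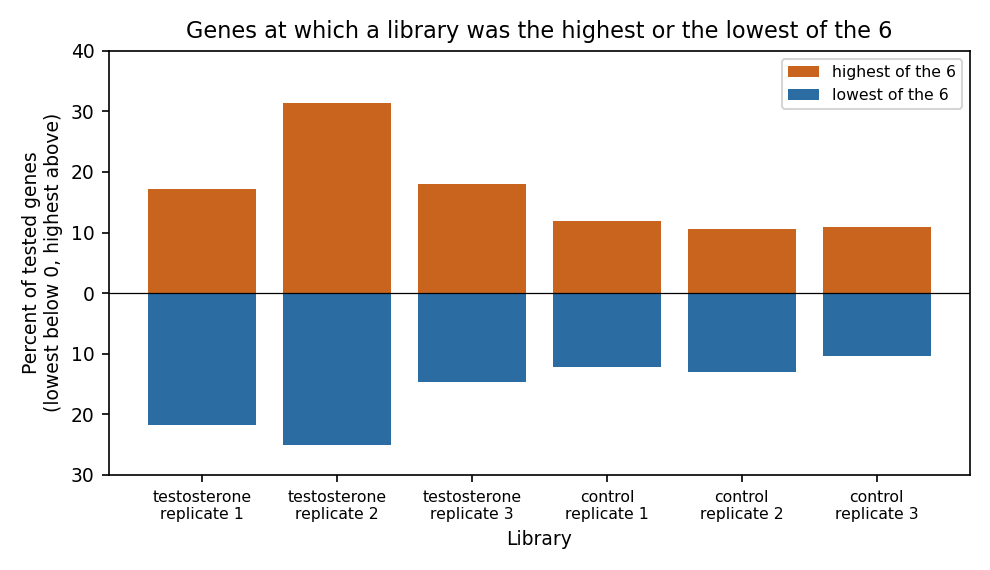
Percent of the 13535 tested genes at which each library had the highest (above 0) or the lowest (below 0) value of the 6. Testosterone replicate 2 has the longest bars, 31.4% and 25.1%, and the 3 oil (control) libraries have the shortest, 10.3% to 13.0%.

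The spread between libraries was larger in the testosterone group. The median standard deviation of a gene's log2(FPKM + 1) values was 0.547 among the 3 testosterone libraries and 0.314 among the 3 oil libraries, and 9875 genes (73.0%) varied more among the testosterone libraries. Without testosterone replicate 2 the median was 0.392 for the other two, still above that of the oil group. The difference in spread was not tested, and it is carried by 3 libraries a group. 

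Oil replicate 1 shared part of the profile of testosterone replicate 2. This pair lay apart from the other 4 libraries, in the same direction, at 3918 genes, more than any other of the 15 pairs, which did so at 799 to 2739 genes. The deviations of these 2 libraries from their own group means correlated across genes at r = 0.439, the highest of the 9 pairs across treatments, whose lowest was -0.505. ENSTGUG00000006833, chosen after its values were seen, was at 22488 FPKM in testosterone replicate 2 and 4655 FPKM in oil replicate 1 and was listed at 0 in the other 4 libraries. In the hypothalamus it was at 7081 FPKM in male oil replicate 1 and was listed at 0 in male testosterone replicate 2. Among the female nucleus taenia libraries it was at 2540 FPKM in oil replicate 2 and at 0 to 44.4 FPKM in the others. This gene alone made up 1.94% of the total FPKM of testosterone replicate 2 and 0.522% of that of oil replicate 1.

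The gene with the highest value of all, ENSTGUG00000016331, also differed widely between libraries of a group. It was at 2009, 44647 and 45751 FPKM in testosterone replicates 1 to 3 and at 7501, 8853 and 10055 FPKM in oil replicates 1 to 3. One testosterone library thus lay below and the other two above every oil library. It took 3.85% and 4.16% of the total FPKM of testosterone replicates 2 and 3, against 0.235% to 1.06% in the others. The 100 most abundant genes held 29.8% and 26.2% of the FPKM of the tested genes in testosterone replicates 2 and 3 and 21.4% to 23.1% in the other 4 libraries. The median of the tested genes was nonetheless similar in all 6, at 19.7 to 21.5 FPKM.

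The 6 libraries were also placed against the 6 female libraries of the nucleus taenia, as a check of the labels. For each male library, genes were picked at which the other 5 male libraries all lay above the 6 female ones, by at least 1 on average on the log2(FPKM + 1) scale. On a scale from 0 at the female mean to 1 at the male mean, the library left out had a median position of 0.73 to 1.0. Testosterone replicates 2 and 3 were at 0.73 each and the other 4 libraries at 0.9 to 1.0. All 6 were nearer to the males than to the females. Testosterone replicates 1 to 3 lay at or below the highest female library at 11 of 73, 15 of 82 and 22 of 96 such genes. Oil replicates 1 to 3 did so at 4 of 80, 4 of 74 and 3 of 74. A testosterone library was scored on genes set mostly by oil libraries, and an oil library on genes set mostly by testosterone libraries. The testosterone libraries also spread more within their group. Neither these counts nor the positions can therefore compare the treatments.

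The size of the differences depended on how abundant a gene was. Among the 2552 genes with a mean of 1 to 5 FPKM, 7.72% differed by more than 2-fold between the group means on the log2(FPKM + 1) scale. Among the 3822 genes of 50 FPKM and over, 2.12% did. In all, 579 genes (4.28%) differed by more than 2-fold, 362 higher and 217 lower after testosterone. Of these, 301 also differed by more than 2-fold the same way without testosterone replicate 2, and 34 changed direction. Without that library 587 genes (4.34%) were past 2-fold, 274 higher and 313 lower. Over all genes the direction changed at 4010 (29.6%) when that library was left out.

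The precision of the comparison can be read from the 95% interval of each difference. The distance from the difference to either end had a median of 0.793 in log2 units (1.73-fold), and this ran from 1.07 for genes of 1 to 5 FPKM to 0.665 for genes of 50 FPKM and over. For 6073 genes (44.9%) the whole interval lay within 2-fold either way, and for 11710 (86.5%) within 4-fold. Among genes of 50 FPKM and over these shares were 57.3% and 91.5%. Without testosterone replicate 2 they were 46.6% and 86.2% over all genes. For the remaining genes these intervals do not bound the difference to within 2-fold. The log2(FPKM + 1) scale also understates the fold of scarce genes. All these intervals use a spread pooled over the nucleus taenia libraries of both sexes, not that of the male libraries alone. The median standard deviation was 0.547 among the male testosterone libraries and 0.314 among the male oil libraries. The intervals may be too narrow for the male comparison, and the shares within 2-fold and 4-fold too high, which was not tested. The same limit holds for the unadjusted p-values. With the 6 male libraries fitted alone, 212 genes (1.57%) had a limma unadjusted p under 0.05, against 381 (2.81%) in the reported fit. That fit also has fewer libraries to estimate the spread.

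At 760 genes (5.62%) all 3 testosterone libraries lay on one side of all 3 oil libraries. They were above at 442 genes (3.27%) and below at 318 (2.35%). Groups of 3 libraries also separate in this way at genes with no effect. The count alone is therefore no sign of an effect of treatment, and it was not tested against that. Of the same genes, 8.05% lay above and 6.04% below in the female nucleus taenia, and 8.11% and 8.6% in the male hypothalamus. Both shares were thus lower in the male nucleus taenia than in either of those groups. The median size of these differences was 0.559 on the log2 scale, or 1.47-fold, and 129 of the 760 exceeded 2-fold. The share that did not overlap was similar at the levels, while the balance of directions differed, which was not tested. Of genes of 50 FPKM and over 6.04% did not overlap, 180 above and 51 below. At lower levels the 2 directions were close. Of genes with 1 to 5 FPKM 6.58% did not overlap, 83 above and 85 below. Without testosterone replicate 2, 1647 genes (12.2%) did not overlap, 858 (6.34%) above and 789 (5.83%) below, where 2 libraries against 3 are separated more easily. In that comparison 11.7% of genes of 50 FPKM and over did not overlap, 323 above and 125 below. With 20 to 50 FPKM 10.9% did not, 200 above and 167 below. The 2 lowest levels leaned the other way. With 1 to 5 FPKM 13.9% did not overlap, 136 above and 219 below, and with 5 to 20 FPKM 12.6%, 199 above and 278 below. The medians of all genes moved little in either case, at 0.0164 on the log2 scale with all 6 libraries and 0.00319 without that one.

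**Figure D3:**
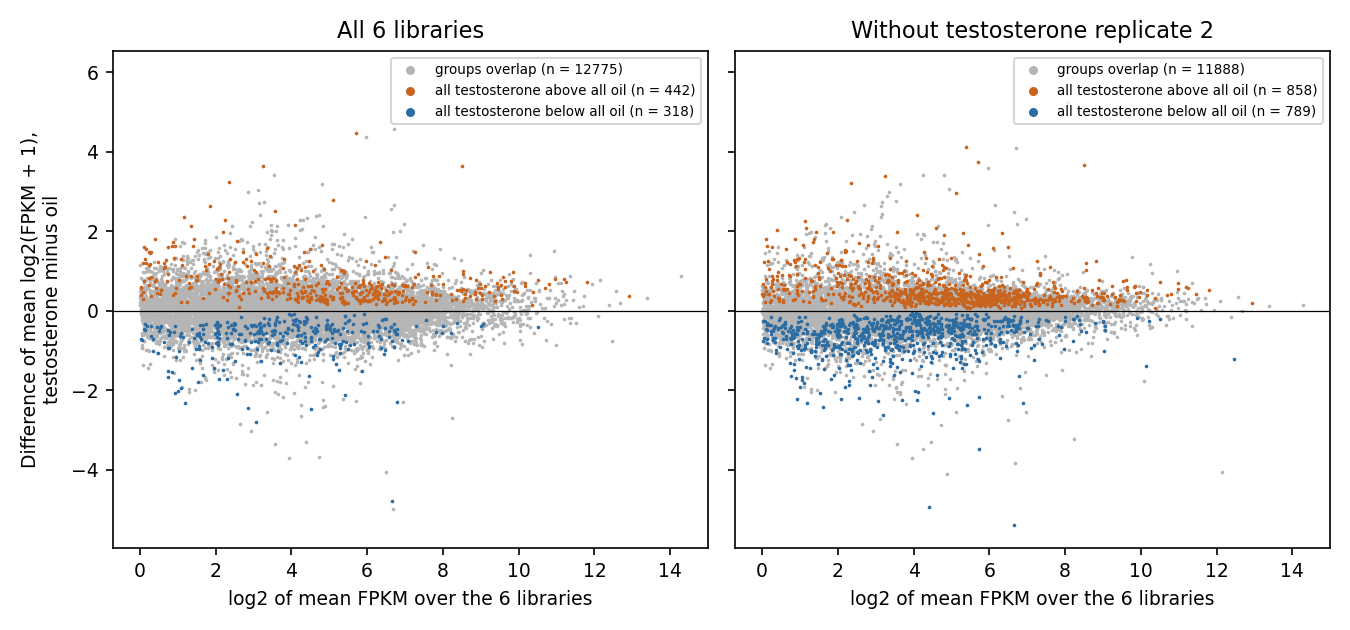
Difference between the testosterone and the oil group in mean log2(FPKM + 1) for each of the 13535 genes, against the log2 of its mean FPKM over the 6 libraries, with all 6 libraries (left) and without testosterone replicate 2 (right). Coloured points are genes at which the groups did not overlap, 442 above and 318 below on the left and 858 above and 789 below on the right.

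Both criteria together, groups that did not overlap and an unadjusted p under 0.05, were met by 265 of the 13535 genes tested. Of these, 155 were higher and 110 lower after testosterone. The 2 with the largest difference in each direction are described here, and all 4 had an adjusted p of 1.00 in limma. Their values in the females and in the male hypothalamus are given beside them. The male hypothalamus is not counted as an independent repeat, because the 2 regions may come from the same birds. Each was listed at 0 in at least 1 of the 6 libraries.

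ENSTGUG00000014720 was at 51.4, 195 and 34.8 FPKM in testosterone replicates 1 to 3. In oil replicates 1 to 3 it was at 0, 32.7 and 0 FPKM. The lowest testosterone library was thus just above the highest oil library (log2 difference 4.47, SE 1.83, limma unadjusted p = 0.0331, and 3.75, SE 2.12, limma unadjusted p = 0.108 without testosterone replicate 2). In the male hypothalamus it was at 18.5, 90.9 and 33.1 FPKM after testosterone and at 0, 72.2 and 0 FPKM after oil, so the groups overlapped there. The female nucleus taenia libraries held 42.2 to 104 FPKM after testosterone and 104, 0 and 165 FPKM after oil.

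ENSTGUG00000014280 was listed at 0 in all 3 oil libraries. In testosterone replicates 1 to 3 it was at 38.6, 16.7 and 1.75 FPKM, with an unadjusted p of 0.0253 in limma and an unadjusted p of 0.0696 without testosterone replicate 2. The male hypothalamus showed 0 in all 3 oil libraries too, and 73.0, 78.3 and 0 FPKM after testosterone. In the female nucleus taenia 1 of the 3 oil libraries was at 0, with 87.3, 39.7 and 0 FPKM after oil and 37.5 to 46.6 FPKM after testosterone.

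ENSTGUG00000013784 had the largest difference in the other direction. Its values were 0, 6.12 and 3.22 FPKM in testosterone replicates 1 to 3 and 300, 6.53 and 286 FPKM in oil replicates 1 to 3. Oil replicate 2 was at the level of the testosterone libraries, and the other two oil libraries were far above it (log2 difference -4.80, interval -9.43 to -0.18, limma unadjusted p = 0.0431, and -5.40, SE 2.46, limma unadjusted p = 0.0535 without testosterone replicate 2). The same 2 replicate numbers were high in the hypothalamus of oil males, at 300 and 334 FPKM against 2.16 FPKM in replicate 2. Of the 6 female nucleus taenia libraries, testosterone replicate 1 was at 297 FPKM and the others at 0 to 3.84 FPKM. In the female hypothalamus testosterone replicate 1 was at 121 FPKM and the others at 0 to 7.69 FPKM. A few libraries of several groups thus held high levels, and the rest were under 10 FPKM.

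ENSTGUG00000015522 was at 0, 0 and 7.62 FPKM in testosterone replicates 1 to 3 and at 8.59, 12.8 and 20.8 FPKM in oil replicates 1 to 3. The difference was -2.80 (SE 1.18, limma unadjusted p = 0.0374), and -2.28 (SE 1.35, limma unadjusted p = 0.122) without testosterone replicate 2. In the male hypothalamus all 3 oil libraries, at 11.2 to 19.9 FPKM, lay above the testosterone libraries, at 0, 0 and 10.51 FPKM. In females the groups overlapped, with 0, 0 and 15.9 FPKM after testosterone and 0 to 4.35 FPKM after oil.

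The genes with the smallest p in each direction, chosen after their values were seen, were steadier within the groups on the log2(FPKM + 1) scale. Selection by p favours such genes. ENSTGUG00000016077 was at 0, 0 and 0.530 FPKM in testosterone replicates 1 to 3 and at 5.13, 4.26 and 2.17 FPKM in oil replicates 1 to 3. The log2 difference was -2.02 (SE 0.37, limma unadjusted p = 0.000217, adjusted p = 1.00), and -1.92 (SE 0.40, limma unadjusted p = 0.000756) without testosterone replicate 2. All 6 female nucleus taenia libraries held 0 to 0.446 FPKM. In the male hypothalamus the groups overlapped, at 0, 0 and 0.851 FPKM after testosterone and 3.03, 0.220 and 0.809 FPKM after oil. ENSTGUG00000015809 was at 4.70, 14.3 and 5.03 FPKM in testosterone replicates 1 to 3 and at 1.94, 0.344 and 1.16 FPKM in oil replicates 1 to 3. The log2 difference was 1.98 (SE 0.42, limma unadjusted p = 0.000705, adjusted p = 1.00), and 1.52 (SE 0.36, limma unadjusted p = 0.00205) without testosterone replicate 2. In the male hypothalamus the groups did not overlap either, at 4.69 to 7.69 FPKM after testosterone and 0 to 2.21 FPKM after oil. The 6 female nucleus taenia libraries held 6.89 to 14.3 FPKM, above all 3 oil males.

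The gene with the smallest p once testosterone replicate 2 was left out shows what that library could do. ENSTGUG00000013646, also chosen after its values were seen, had 6.16 and 12.7 FPKM in replicates 1 and 3 of the testosterone group, and 35.3, 33.6 and 21.9 FPKM in oil replicates 1 to 3. Testosterone replicate 2 was at 38.5 FPKM, above all of them. With all 6 libraries the log2 difference was -0.96 (SE 0.49, limma unadjusted p = 0.0749). Without testosterone replicate 2 it was -1.63 (SE 0.32, limma unadjusted p = 0.000489, adjusted p = 1.00).

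**Figure D4:**
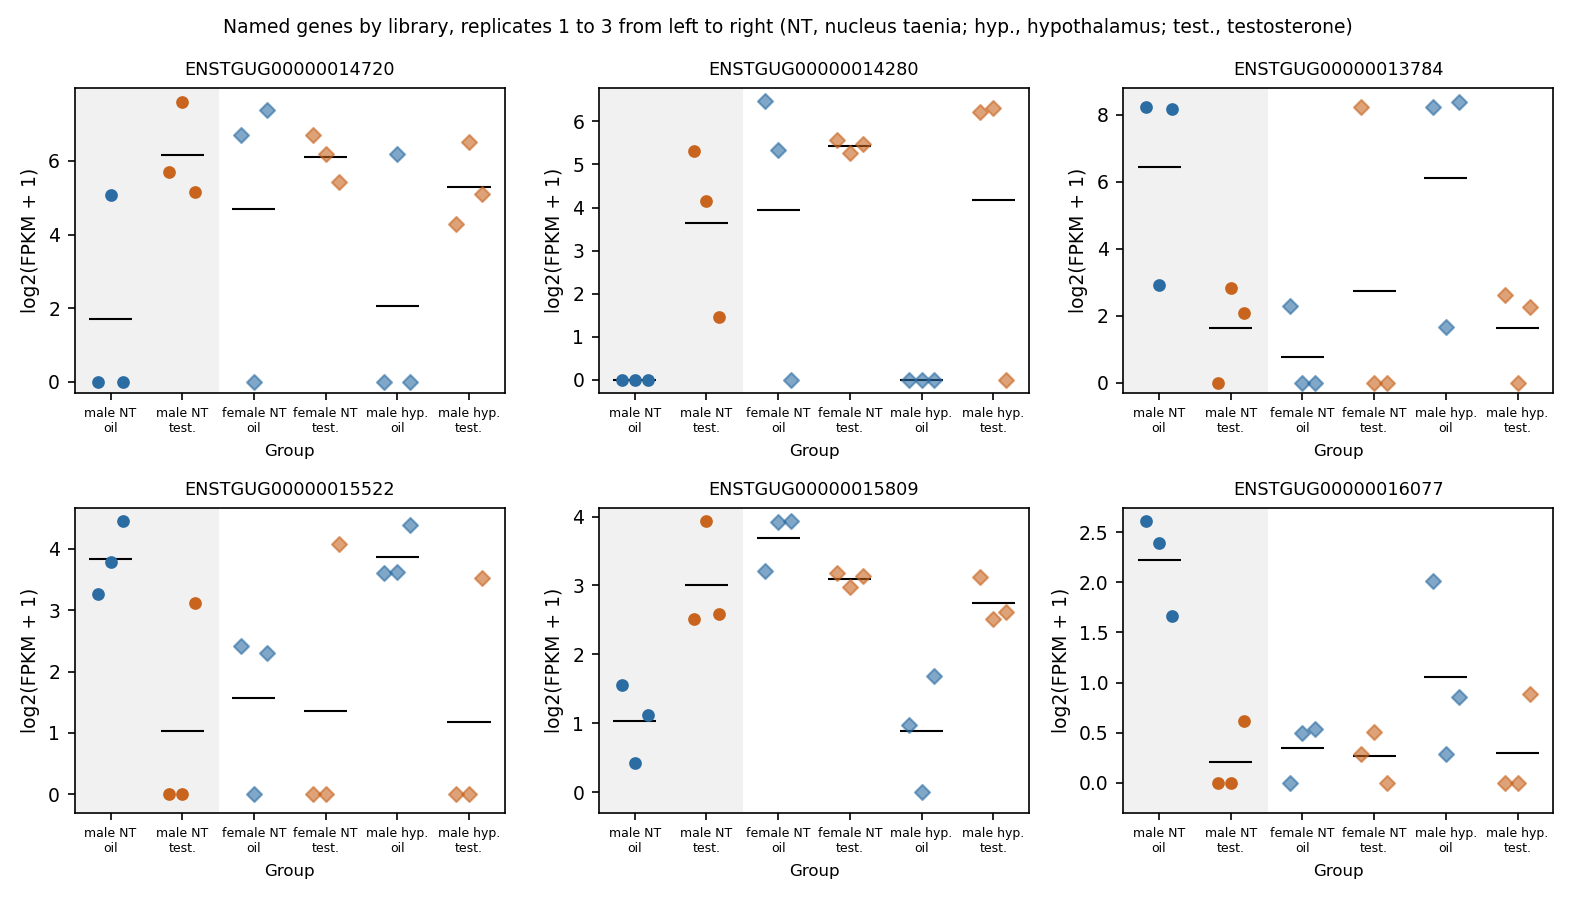
log2(FPKM + 1) of the 4 genes named by size of difference and the 2 with the smallest p in each library of the male nucleus taenia (circles on grey), the female nucleus taenia and the male hypothalamus (diamonds), with oil in blue, testosterone in orange and a line at the group mean. In the male nucleus taenia the 3 orange and the 3 blue points do not overlap for any of the 6. This was a condition for selecting the 4 named by size, while the other 2 were selected by p alone. Within a group single libraries fall to 0.

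Single libraries decided whether any gene passed the adjusted threshold. Leaving out each of the 6 libraries in turn gave 0 genes without testosterone replicate 2, 1 without testosterone replicate 1, 1 without testosterone replicate 3, 4 without oil replicate 1, 1 without oil replicate 2 and 2 without oil replicate 3. These were 9 different genes, and at 8 of them 1 of the 2 groups was listed at 0 in every library kept. Of the 8, the testosterone group was at 0 for 5 and the oil group for 3. All 5 of the former were also at 0 in the 6 female libraries, which share the estimate of the spread. They are named because they are few, and were chosen after their values were seen.

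ENSTGUG00000006203 passed without testosterone replicate 1 (limma adjusted p = 2.73e-05). It was at 214, 180 and 98.9 FPKM in oil replicates 1 to 3 and at 0 in testosterone replicates 2 and 3, while the library left out held 121 FPKM. ENSTGUG00000017101 passed without testosterone replicate 3 (limma adjusted p = 0.0439), with 23.7, 7.995 and 14.0 FPKM after oil, 0 in testosterone replicates 1 and 2, and 15.5 FPKM in the library left out. In both, the testosterone library left out was within the range of the oil libraries.

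Without oil replicate 1 the calls were ENSTGUG00000016612, ENSTGUG00000014467, ENSTGUG00000011597 and ENSTGUG00000015093 (limma adjusted p = 0.0215, 0.0282, 0.0282 and 0.0215). The first 2 were at 0 in all 3 testosterone libraries and in oil replicate 1, and at 6.71 and 8.04 FPKM and at 5.24 and 7.71 FPKM in oil replicates 2 and 3. ENSTGUG00000011597 was at 8.592, 8.004 and 7.005 FPKM after testosterone and at 5.01, 0 and 0 FPKM after oil. ENSTGUG00000015093 was at 172, 972 and 270 FPKM after testosterone and at 184, 0 and 0 FPKM after oil. Oil replicate 1 thus lay within the range of the testosterone libraries at 3 of the 4 genes, and between them and the other oil libraries at ENSTGUG00000011597.

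ENSTGUG00000016179 passed without oil replicate 2 (limma adjusted p = 0.000815). It was at 0 in the 3 testosterone libraries and in oil replicate 2, and at 25.4 and 20.04 FPKM in oil replicates 1 and 3. Without oil replicate 3 the calls were ENSTGUG00000007205 and ENSTGUG00000003351 (limma adjusted p = 0.0497 each). ENSTGUG00000007205 was at 36.7, 230 and 55.1 FPKM after testosterone and at 0, 0 and 54.3 FPKM after oil. ENSTGUG00000003351 was the only one of the 9 that was above 0 in all 6 libraries, at 4.26, 6.10 and 5.05 FPKM after testosterone and 62.6, 47.5 and 11.4 FPKM after oil. With all 6 libraries its log2 difference was -2.47 (SE 0.53, limma unadjusted p = 0.000744, adjusted p = 1.00). The 6 female nucleus taenia libraries, at 9.67 to 21.3 FPKM, lay above all 3 testosterone males, and 3 of them fell within the range of the oil males. In the male hypothalamus, which is not an independent repeat, it was at 1.65 to 4.57 FPKM after testosterone. After oil it was at 13.3 to 57.4 FPKM there, without overlap.

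**Figure D5:**
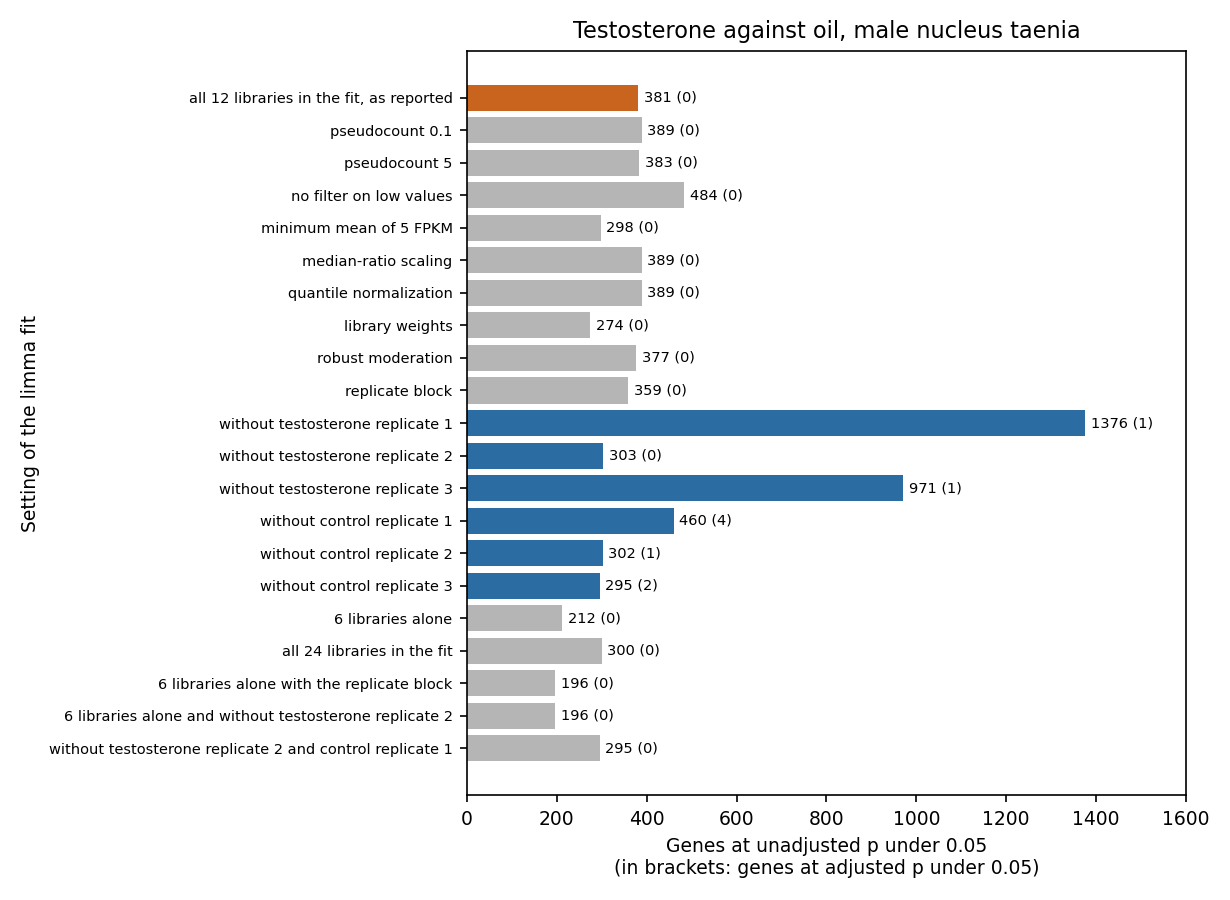
Number of genes at an unadjusted p under 0.05 in limma (bars) and at an adjusted p under 0.05 (in brackets) for testosterone against oil in the male nucleus taenia, under each setting of the fit. The reported fit gives 381 (orange), leaving out single libraries gives 295 to 1376 (the 6 blue bars), and the adjusted count is 0 to 4 throughout. The bar at the bottom, without testosterone replicate 2 and oil replicate 1 together, is 295. The smallest count is 196, with the 6 male libraries alone and either the replicate block or testosterone replicate 2 left out.

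Zeros were few over all genes tested but more frequent among the genes that met both criteria. Of the 13535 genes, 733 (5.42%) were listed at 0 in at least 1 of the 6 libraries. Of the 265 genes that met both criteria 39 were, a larger share, and these included every gene named by size of difference. At 9 of the 13535 genes all 3 oil libraries were at 0 and all 3 testosterone libraries above it, and at 1 the reverse held. This imbalance was not tested. Oil replicate 2 had the lowest relative depth of the 6 libraries, roughly 0.586. It was at 0 at 13 genes where all others held at least 5 FPKM, and the other libraries were so at 5 to 11 genes. A listed 0 can be a failed estimate of the quantification.

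The effect in males was then set against that in females of the same region and in the hypothalamus of males. The difference of the treatment effect between the sexes passed for 0 of 13535 genes in limma (smallest adjusted p = 0.866). Taken unadjusted, 527 genes (3.89%) were under 0.05, and 324 (2.39%) without testosterone replicate 2. Dropping male testosterone replicate 1, testosterone replicate 3 or oil replicate 1 gave 1352 (9.99%), 1235 (9.12%) and 907 (6.7%). Dropping female oil replicate 2 gave 920 (6.8%), and the lowest count with a library dropped was 312 (2.31%). The difference between the nucleus taenia and the hypothalamus of males also passed for 0 genes (smallest limma adjusted p = 0.876). Here 693 genes (5.12%) were under 0.05 unadjusted, and 433 (3.2%) without testosterone replicate 2. Dropping testosterone replicate 1, testosterone replicate 3 or oil replicate 1 of the nucleus taenia gave 1472 (10.9%), 1314 (9.71%) and 1093 (8.08%). The lowest count with a library dropped was 362 (2.67%). With library weights the count was 1159 (8.56%). Of the 442 genes higher without overlap in the male nucleus taenia, 16 (3.62%) were higher without overlap in females, where 8.05% of all tested genes were, and 21 (4.75%) were lower, where 6.04% were. Of the 318 lower genes, 18 (5.66%) were lower in females, where 6.04% were, and 40 (12.6%) were higher, where 8.05% were. The shared genes were 1.47% and 2.2% of the female lists, while 3.27% and 2.35% of all tested genes were higher and lower in the male nucleus taenia.

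In the male hypothalamus, 47 of the 442 genes (10.6%) were higher without overlap and 33 (7.47%) lower, where 8.11% and 8.6% of all tested genes were. Of the 318 lower genes, 32 (10.1%) were lower there and 19 (5.97%) higher, where 8.6% and 8.11% were. The shared genes were 4.28% and 2.75% of the hypothalamus lists, against 3.27% and 2.35% of all tested genes in the male nucleus taenia. These shares stood near those of all genes tested. The 2 regions may come from the same birds, which the labels do not say. The test of the region difference treated the libraries of the 2 regions as independent. The deviations of same-numbered libraries of the 2 regions from their group means correlated across genes at r = 0.676, 0.539 and 0.536 in oil replicates 1 to 3 and at 0.382, 0.296 and -0.0614 in testosterone replicates 1 to 3, so the hypothalamus cannot be counted as an independent repeat.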

How the data were processed

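RNA was measured in 24 libraries, of which the 6 of the male nucleus taenia are described. The deposited values are FPKM, which the authors computed per gene and library; TopHat2 2.1.1, Cufflinks 2.2.1 and cutadapt 1.9.1 appear in the submitters' processing notes. The genome build is not given in the sources used here, nor is the annotation. 0 columns could not be tied to a sample, and the methylation samples were not analysed here. FPKM removes read numbers, so absolute depth is unknown. Relative depth, estimated from the steps between low values (under 0.2 FPKM), was 0.586 (oil replicate 2) to 1.22 (oil replicate 1) times the median of the 12 nucleus taenia libraries; 33.3% of the 66 pairs of libraries lay within 3% of these estimates, so they are rough.

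Tests used limma 3.58.1 (R 4.3.3). Values were taken as log2(FPKM + 1), with 1 mean per group over the 12 nucleus taenia libraries of both sexes, a trended prior, and Benjamini-Hochberg adjustment over all 13535 genes at 0.05. The region difference used the 12 male libraries. Genes named by rule were the 2 largest differences each way among genes with groups not overlapping and an unadjusted p under 0.05; lists by symbol and cell type markers could not be applied. The genes, lists and tests were chosen with earlier results of these data known. The fit was run on simulated data with known differences, normal noise and the same spread in every group. The simulation left out the unequal spread of the male groups, so it does not measure how well the fit works on these libraries. Alternatives were pseudocounts of 0.1 and 5, no filter or a minimum mean of 5 FPKM, 2 scalings, library weights, robust moderation, a replicate block, other sets of libraries and each library left out. Figures were drawn with matplotlib 3.10.9.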

Additional observations from a re-analysis of the deposited data

Results flagged for a closer look

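ENSTGUG00000015809 was higher in every testosterone library than in every oil library of the male nucleus taenia and lower in every testosterone library of the female nucleus taenia (6.89 to 8.06 FPKM, against 8.29 to 14.3 FPKM after oil). The effects differed by 2.57 on the log2(FPKM + 1) scale, which did not pass limma's test of the difference (unadjusted p = 0.00133, adjusted p = 0.866). ENSTGUG00000011597 was higher in every testosterone library of the male nucleus taenia (7.005 to 8.592 FPKM, against 0 to 5.01 FPKM) and lower in every testosterone library of the male hypothalamus (3.37 to 6.09 FPKM, against 6.67 to 11.3 FPKM). The effects differed by 3.06 on the same scale, which did not pass either (limma unadjusted p = 0.00389, adjusted p = 0.876). Both genes were chosen after their values were seen.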

How the results depend on the processing

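The count of 0 genes past the adjusted threshold in the male nucleus taenia stayed at 0 in limma under both other pseudocounts, both other filters, both scalings, library weights, robust moderation, the replicate block, all 24 libraries and the 6 libraries alone, and ran from 0 to 4 with single libraries left out. The unadjusted count of 381 ran from 295 to 1376 with single libraries left out (highest without testosterone replicate 1, then 971 without testosterone replicate 3). It was 212 with the 6 male libraries alone, 196 with these and the replicate block and 196 with these without testosterone replicate 2; with the replicate block among the 12 libraries it was 359. Replicate numbers are shared between groups, but the deviations of same-numbered testosterone and oil libraries correlated at r = -0.00299, -0.22 and 0.3, so the numbers were not taken as a pairing. Without testosterone replicate 2 and oil replicate 1 together, a setting chosen after seeing the data, the counts were 0 and 295. For the sex difference of the effect the adjusted count ran from 0 to 1 with single libraries left out (ENSTGUG00000006203 without male testosterone replicate 1, ENSTGUG00000007129 without male oil replicate 1 and ENSTGUG00000016179 without male oil replicate 2, limma adjusted p = 0.000422, 0.0182 and 0.0127, named after their values were seen) and the unadjusted count from 312 to 1352. For the region difference the adjusted count was 0 in every setting run, and the unadjusted count ran from 362 to 1472 with single libraries left out and was 1159 with library weights. Of the genes named, 2 changed direction. ENSTGUG00000016331 was at -0.47 under quantile normalization (0.87 as reported). ENSTGUG00000006833, at 0.76 as reported, was at -4.06 without testosterone replicate 2. It was also at -4.06 when the 6 libraries were fitted alone with testosterone replicate 2 left out. The difference was -1.27 without oil replicate 2 or oil replicate 3, and 4.82 without oil replicate 1. Testosterone replicate 1 and replicate 2 received the lowest library weights, 0.392 and 0.268. In limma, 150 genes were at an unadjusted p under 0.05 both with and without testosterone replicate 2. They were 39.4% of the first list and 49.5% of the second. All kept their direction, which is no check of it, because they were selected in both fits and the fits share most libraries. With 2 libraries left in a group, the spread pooled over the other groups is assumed to hold for it.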
